A study of Mus musculus with 23 samples.

Results

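The genes described here are 6 genes of antigen presentation on MHC class II: H2-Aa, H2-Ab1, H2-Eb1, Cd74, Ciita and H2-DMa. They were taken by symbol from a table of 14535 genes, in which all 6 had a row, and all 6 were among the 12041 genes whose mean FPKM over the tumors was 1 or more. Their levels were set against Csf1r, the gene of the receptor for colony stimulating factor 1, which marks macrophages and their precursors. The series holds bulk RNA-seq of 23 primary mammary tumors of mice, made to ask how tumors that arise after loss of Brca1 differ from one another. All 23 tumors fall into 1 labelled group, a Brca1-deficient genotype on a mixed strain background, and no normal tissue, treatment or age is given with them. The study's methods describe floxed Brca1 removed by Cre under the MMTV promoter, which acts in the mammary epithelium, with loss of 1 Trp53 allele in part of the mice, but the labels do not tie a genotype to a tumor and no such groups were made. The study's supplement does so for some tumors: X9387T and X147T with Brca1 removed alone, X4351T and X731T with loss of a Trp53 allele as well. It also reports that its mesenchymal-like tumors all came from mice without the Trp53 mutation. The part of the Trp53 genotype in the class II levels was not tested. A tumor piece also holds blood vessels, connective tissue and immune cells, and class II RNA in it can come from any of these or from the tumor cells. The titles carry 19 numbers, and under 4 of them there is a pair of tumors. Since no label says whether each tumor is from a mouse of its own, a p-value here measures the spread among tumors, which may in part share an animal.

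MHC class II molecules carry peptides from engulfed proteins to the surface of macrophages, dendritic cells and B cells, where CD4+ T cells read them. H2-Aa and H2-Ab1 encode the alpha and beta chains of the I-A molecule, and H2-Eb1 encodes the beta chain of I-E. Cd74 encodes the invariant chain, which fills the groove until the molecule reaches an acid compartment, and H2-DMa encodes the alpha chain of H2-DM, which exchanges the remnant of the invariant chain for peptide. Ciita encodes the coactivator that switches these genes on. It binds no DNA itself but joins the RFX, CREB and NF-Y factors that sit on the X and Y boxes of class II promoters, and interferon gamma is a known inducer of it.

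On mm10, the same assembly as GRCm38, 4 of the 6 genes share a stretch of chromosome 17 of 197.1 kb in the GENCODE annotation. H2-DMa lies at 34119541 to 34139101, H2-Ab1 at 34257689 to 34269419, H2-Aa at 34282744 to 34287823 on the reverse strand and H2-Eb1 at 34305867 to 34316674. Ciita is on chromosome 16, at 10480059 to 10528418, and Cd74 lies on neither of these. Promoter sequences from RefSeq (GRCm38.p6) matched 3 of the 6 genes, with 4 windows in all. The 250 bases before the start of H2-Aa, chr17:34287824-34288073 on the reverse strand, and of H2-Eb1, chr17:34305617-34305866 on the forward strand, are shown because these genes lie side by side and each window holds some of the boxes that class II promoters are known for. Capitals mark the Y box ATTGG or its reverse complement CCAAT, the X2 box TGACGTCA, and a match with at most 1 mismatch to the X1 box, the longer element to which RFX binds.
H2-Aa: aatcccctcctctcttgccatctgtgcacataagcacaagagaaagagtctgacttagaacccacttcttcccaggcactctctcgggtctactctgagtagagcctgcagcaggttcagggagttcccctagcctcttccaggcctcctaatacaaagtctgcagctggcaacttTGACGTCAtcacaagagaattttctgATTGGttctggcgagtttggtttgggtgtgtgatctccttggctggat
H2-Eb1: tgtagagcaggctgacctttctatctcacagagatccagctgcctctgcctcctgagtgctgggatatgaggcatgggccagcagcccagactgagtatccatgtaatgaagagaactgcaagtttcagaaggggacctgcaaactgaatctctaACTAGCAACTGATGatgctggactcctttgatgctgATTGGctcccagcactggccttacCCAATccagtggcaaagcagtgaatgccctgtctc
Counted from the start, with -1 as the last base before it, H2-Aa had its Y box at -48 to -44 and the X2 box at -74 to -67. H2-Eb1 had a Y box at -59 to -55, its reverse complement at -35 to -31 and the X1 match, with 1 mismatch, at -95 to -82. The search covered both strands, and the X2 letters read the same on either strand. Of 32536 promoter windows of this length in the RefSeq table, 33.8% held the Y box, 1.56% the X2 box and 1.6% an X1 box with at most 1 mismatch. With up to 3 mismatches, an X1 match was in 82.9% of windows, so matches at that distance are not marked. Of the windows of H2-DMa, the first held neither a Y nor an X2 box and the second held a Y box at -198 to -194. A match of letters is a description of the sequence only.

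All 6 genes varied widely between tumors, with the invariant chain and the I-A chains at the top and Ciita at the bottom. Levels are log2(FPKM + 1), in which fragments are scaled to the length of the transcript and the size of the library. The genes with a value above 0 numbered 11829 to 12863 by tumor, and how deeply each library was sequenced is unknown. Cd74 was the highest of the 6, with a lowest level of 3.73 in X147T, a median of 9.03 and a highest level of 11.43 in X4351T, or an FPKM of 12.3, 521.0 and 2756.0. H2-Aa ran from 2.99 in X370T through a median of 8.03 to 10.23 in X4351T. H2-Ab1 ran from 3.19 in X370T through a median of 7.85 to 10.06 in X4351T. The I-A chains thus had nearly the same range and shared their lowest and highest tumors. H2-Eb1 ran from 1.80 in X147T through a median of 6.71 to 9.56 in X4351T. H2-DMa was far lower, from 1.12 in X370T through a median of 3.63 to 5.53 in X4351T. Ciita, the coactivator, was listed at 0 in 9 of 23 tumors, had a median of 0.73 and reached 4.01 in X2265T and 3.02 in X4351T. An exact 0 in such a table can be a failed estimate, so these tumors are said to be listed at 0. In the plot of levels by tumor the lines of Cd74 and of the 3 chain genes keep nearly the same shape from tumor to tumor.

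**Figure D1:**
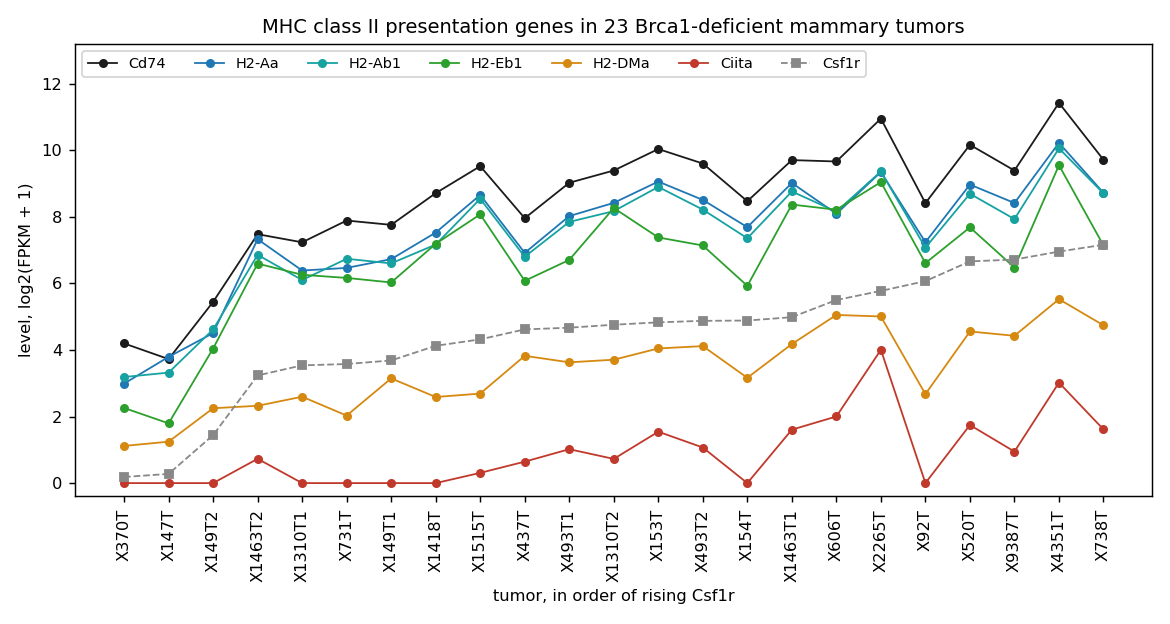
Levels of the 6 class II genes and of Csf1r in each of 23 tumors, as log2(FPKM + 1) on the vertical axis, with tumors ordered by rising Csf1r on the horizontal axis and 1 point per tumor and gene. The 3 tumors at the left, with Csf1r between 0.18 and 1.44, have the lowest Cd74, H2-Aa, H2-Ab1 and H2-Eb1, and X4351T has the highest of each.

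The order of the levels was Cd74, H2-Aa, H2-Ab1, H2-Eb1, H2-DMa and Ciita, and most neighbours in it held their places within single tumors. FPKM is scaled by length, so genes can be compared within a tumor. Cd74 exceeded H2-Aa by 0.99 ± 0.38 log2 units (SD, n = 23), in 22 of 23 tumors. H2-Aa exceeded H2-Ab1 by 0.17 ± 0.21 (SD, n = 23), a difference smaller than its spread, in 18 of 23 tumors. H2-Ab1 exceeded H2-Eb1 by 0.70 ± 0.56 (SD, n = 23) in 19 of 23 tumors, and this gap was widest in X738T at 1.57. H2-Eb1 exceeded H2-DMa by 3.23 ± 1.17 (SD, n = 23) and H2-DMa exceeded Ciita by 2.51 ± 0.69 (SD, n = 23), each in all 23 tumors. Apart from H2-Aa and H2-Ab1, each mean difference between neighbours was larger than its SD. H2-Ea-ps, annotated as the pseudogene of the I-E alpha chain, was listed at 0 in 16 tumors and reached 3.15.

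In 3 tumors, X370T, X147T and X149T2, Cd74, H2-Aa, H2-Ab1 and H2-Eb1 had their lowest levels together with Csf1r. Csf1r was 0.18, 0.28 and 1.44 in them and between 3.24 and 7.16 in the other 20. H2-Aa was between 2.99 and 4.51 in the 3 tumors and between 6.39 and 10.23 in the others. H2-Eb1 was between 1.80 and 4.05 in the 3 tumors and between 5.93 and 9.56 in the others. For H2-DMa the sets overlapped, with 1.12 to 2.25 against 2.03 to 5.53. Ciita was listed at 0 in all 3 tumors and was between 0 and 4.01 in the others, so its sets overlapped too. How many of all tested genes separate the 3 tumors from the others was not counted. Ptprc, the leukocyte gene of CD45, was between 0 and 1.22 in the 3 tumors, and the endothelial gene Pecam1 between 0 and 2.90. Both overlapped the others, where Ptprc was between 0.80 and 4.52 and Pecam1 between 2.72 and 4.61. The summed FPKM of 21 macrophage genes, as a log2 value, was between 5.82 and 7.77 in the 3 tumors, where its median over the series was 10.39. In the same tumors short non-coding RNA genes took 19.3%, 30.5% and 72.7% of the summed FPKM. In the other 20 this share was between 4.95% in X738T and 47.4% in X153T, and X153T had Cd74 at 10.04. The part of these RNAs in the low values of single tumors was not tested. In bulk RNA, fewer cells of a type and less RNA per cell cannot be told apart.

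All 6 genes rose with Csf1r. In a limma regression of each tested gene on Csf1r, with p-values adjusted by the Benjamini-Hochberg method over 12040 genes, 6 of 6 had a positive slope at an adjusted p under 0.05, where 762 genes, or 6.33%, rose and 141, or 1.17%, fell. Slopes are given as log2(FPKM + 1) for each SD of Csf1r over the 23 tumors, which is 1.89 log2 units. The median slope of the 6 genes was 1.56 and that of all tested genes was 0.07. Cd74 had the steepest slope of the 6, 1.77 ± 0.166 (SE, n = 23, limma adjusted p = 2.53e-08). H2-Aa followed at 1.60 ± 0.165 and H2-Ab1 at 1.57 ± 0.162 (both limma adjusted p = 1.16e-07). H2-Eb1 had a slope of 1.55 ± 0.217 (limma adjusted p = 1.82e-05) and H2-DMa of 1.05 ± 0.134 (limma adjusted p = 4.59e-06). Ciita had the shallowest, 0.64 ± 0.188 (limma adjusted p = 0.0379), on a scale whose pseudocount of 1 understates the change of low genes. With a pseudocount of 0.1 its slope was 1.43 ± 0.399 (SE, n = 23, limma adjusted p = 0.0316), beside 1.21 ± 0.152 for H2-DMa. That pseudocount sets the 9 tumors where Ciita was listed at 0 further from the others, and whether these 2 slopes differ was not tested. The call of Ciita with a pseudocount of 1 was lost when X147T, X149T2, X4351T, X520T or X738T was left out, and its slope was between 0.55 and 0.71 with each tumor left out in turn. Cd74 lies on the same chromosome as Csf1r, chromosome 18, with 287.9 kb between them. With the mean z-score of the other macrophage genes in place of Csf1r, the slopes were between 0.65 for Ciita and 1.75 for Cd74, and 6 of 6 rose, where 4.66% of all genes did. With FPKM rescaled without short non-coding RNAs, the slopes on Csf1r were between 0.60 for Ciita and 1.78 for Cd74. In that fit 5 of 6 rose, where 6.38% of all genes did.

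**Figure D2:**
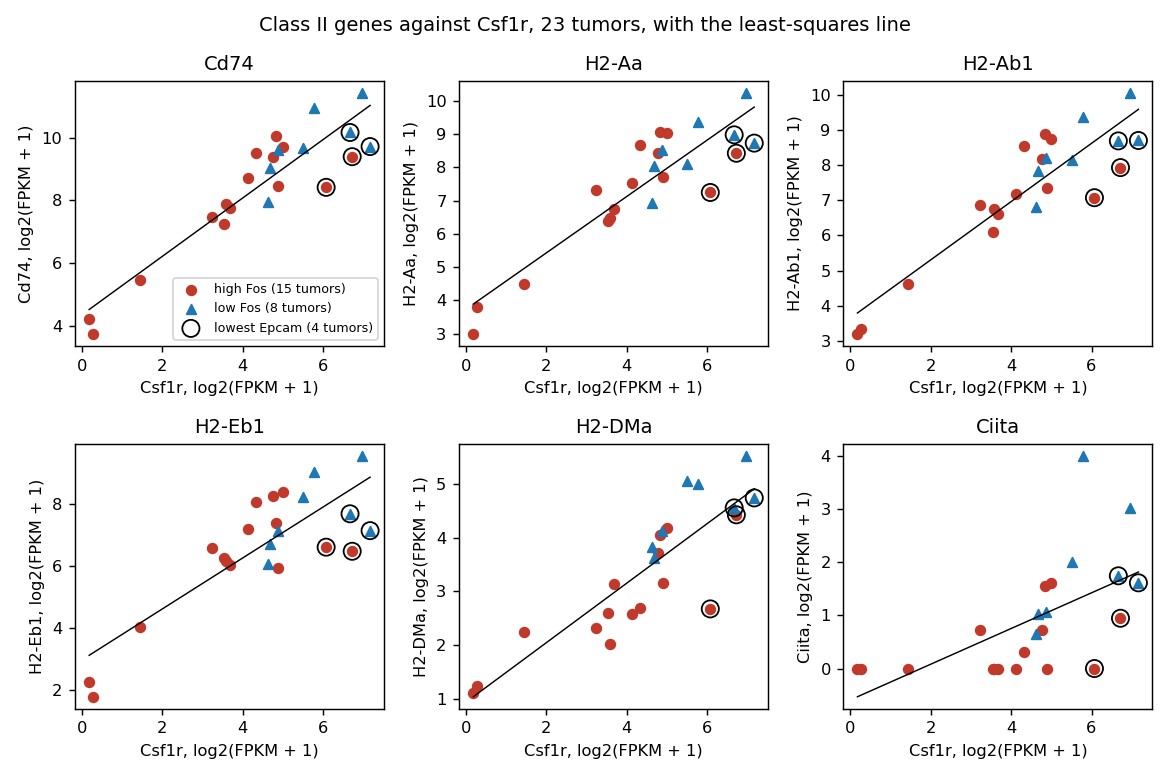
Each class II gene against Csf1r, both as log2(FPKM + 1), with 1 point per tumor and the least-squares line over 23 tumors. Red circles are 15 tumors with high Fos, blue triangles 8 with low Fos, and black rings mark the 4 tumors with the lowest Epcam, of which X92T, X9387T and X738T lie below the line in all 6 panels. The 3 points at the left are X370T, X147T and X149T2.

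The relation was less steep for 4 of the genes without the 3 tumors of lowest Csf1r. Over the other 20 tumors, a choice made after seeing the data, 4 of 6 genes rose, where 5.94% of all genes did. On the same scale, per SD of Csf1r over all tumors, the slope was 1.30 ± 0.277 for Cd74 (SE, n = 20, limma adjusted p = 0.00633), 1.13 ± 0.272 for H2-Ab1 (adjusted p = 0.0153) and 1.12 ± 0.271 for H2-Aa (adjusted p = 0.0156). H2-DMa kept its steepness, at 1.26 ± 0.235 (limma adjusted p = 0.00216). H2-Eb1, at 0.75 ± 0.330 (limma adjusted p = 0.151), had the largest drop of the 6 and did not pass. Ciita, at 1.01 ± 0.325 (limma adjusted p = 0.0583), was steeper than over all tumors but did not pass either.

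Correlations with Csf1r were positive for all 6 genes. Over 23 tumors Pearson's r was 0.911 for Cd74 and Spearman's rho 0.832, with a permutation p of 1e-05 for both, the smallest that 100000 draws can give. Without X147T and X370T, the tumors farthest from the median of Csf1r, r of Cd74 was 0.816. For H2-Ab1 r was 0.896 (permutation p = 1e-05), rho 0.794 (p = 4e-05) and r without those tumors 0.784. For H2-DMa r was 0.862, rho 0.879 (permutation p = 1e-05 for both) and r without those tumors 0.785. For Ciita r was 0.593 (permutation p = 0.00372), rho 0.711 (p = 0.00033) and r without them also 0.593. H2-Aa and H2-Eb1 fell into separate sets of 3 and 20 tumors, divided by a gap wider than 1 SD of the gene, so their r is given within the 20 only. There r was 0.680 for H2-Aa (permutation p = 0.00098, rho 0.666, permutation p = 0.0018) and 0.603 without X4351T and X738T. For H2-Eb1 it was 0.446 (permutation p = 0.0499, rho 0.447, permutation p = 0.0506) and 0.357 without those tumors. The relation of H2-Eb1 among these 20 tumors therefore lay at the edge of the threshold. Cd74 and H2-Ab1 had their widest gap between the same 3 and 20 tumors, at 0.92 and 0.85 SD, short of that cutoff. Within the 20 tumors r was 0.726 for Cd74, 0.681 for H2-Ab1, 0.779 for H2-DMa and 0.586 for Ciita. An r over 23 tumors is therefore not to be compared with an r of another gene over 20. The p-values given here are for single relations, 6 in all, and the adjusted values are those of the regressions above.

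The tumors fall into another pair of sets by Fos, an immediate-early gene that is switched on quickly by stimulation and stress, with 8 tumors between 3.39 and 5.37 and 15 between 8.16 and 9.99. Cd74, H2-Aa, H2-Ab1 and H2-Eb1 overlapped widely between these sets, with higher medians in the tumors with low Fos. The medians with low and high Fos were 9.69 and 8.42 for Cd74, 8.62 and 7.33 for H2-Aa. They were 8.46 and 7.08 for H2-Ab1, and 7.42 and 6.48 for H2-Eb1. The difference between the sets was not tested. Ciita was between 0 and 1.61 in the tumors with high Fos and between 0.64 and 4.01 in those with low Fos, and all 9 tumors where it was listed at 0 were in the first set. H2-DMa was between 1.12 and 4.43 with high Fos and between 3.63 and 5.53 with low Fos. With Fos as a covariate, 5 of 6 genes rose with Csf1r, where 4.07% of all genes did, and Ciita did not, at 0.37 (limma adjusted p = 0.303). Within the 15 tumors with high Fos, a set added after seeing the data, the same 5 genes rose, where 2.56% did, and Ciita had a slope of 0.26 (limma adjusted p = 0.445). In the 8 tumors with low Fos r was 0.730 for H2-Aa (exact permutation p = 0.0347), 0.747 for H2-Ab1 (exact permutation p = 0.0298) and 0.741 for H2-DMa (exact permutation p = 0.0423). In the same 8 tumors r was 0.679 for Cd74 (exact permutation p = 0.0631), 0.552 for H2-Eb1 (exact permutation p = 0.161) and 0.482 for Ciita (exact permutation p = 0.23). All 3 tumors of lowest Csf1r are among the 15 with high Fos. In the other 12 of that set r was 0.593 for Cd74 (permutation p = 0.0414) and 0.656 for H2-DMa (permutation p = 0.0202). In these 12 it was 0.512 for H2-Aa (permutation p = 0.0891), 0.470 for H2-Ab1 (permutation p = 0.123), 0.145 for H2-Eb1 (permutation p = 0.655) and 0.316 for Ciita (permutation p = 0.316). Without X92T and X9387T, the tumors of these 12 farthest from the median of Csf1r, r was higher for all 6 genes. It was 0.861 for Cd74, 0.821 for H2-DMa, 0.819 for H2-Aa, 0.815 for H2-Ab1, 0.585 for H2-Eb1 and 0.531 for Ciita. The low r of H2-Eb1 in the 12 tumors thus depended on X92T and X9387T, as well as on leaving out the 3 tumors of lowest Csf1r.

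Tumors with similar Csf1r could differ in class II. X92T, with Csf1r at 6.07, had Cd74 at 8.42, H2-Aa at 7.24 and Ciita listed at 0. X2265T, with Csf1r at 5.78, had Cd74 at 10.96, H2-Aa at 9.35 and Ciita at 4.01. Set against the regression line on Csf1r, all 6 genes lay above it in 5 tumors, X493T2, X4351T, X2265T, X1463T1 and X153T. All 6 lay below it in 4 tumors, X92T, X9387T, X738T and X154T. Of the 4 tumors with the lowest Epcam, an epithelial adhesion gene, X92T, X9387T and X738T are among the latter, and X520T lay below the line for 5 genes and 0.10 log2 units above it for Ciita. Csf1r was between 6.07 and 7.16 in these 4 tumors. Without them the slopes were 2.17 for Cd74, 1.97 for H2-Aa, 1.95 for H2-Ab1 and 2.09 for H2-Eb1, and 6 of 6 genes rose, where 2.42% of all genes did. These tumors were chosen by Epcam and not by class II, but the set was not tested against the rest.

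**Figure D3:**
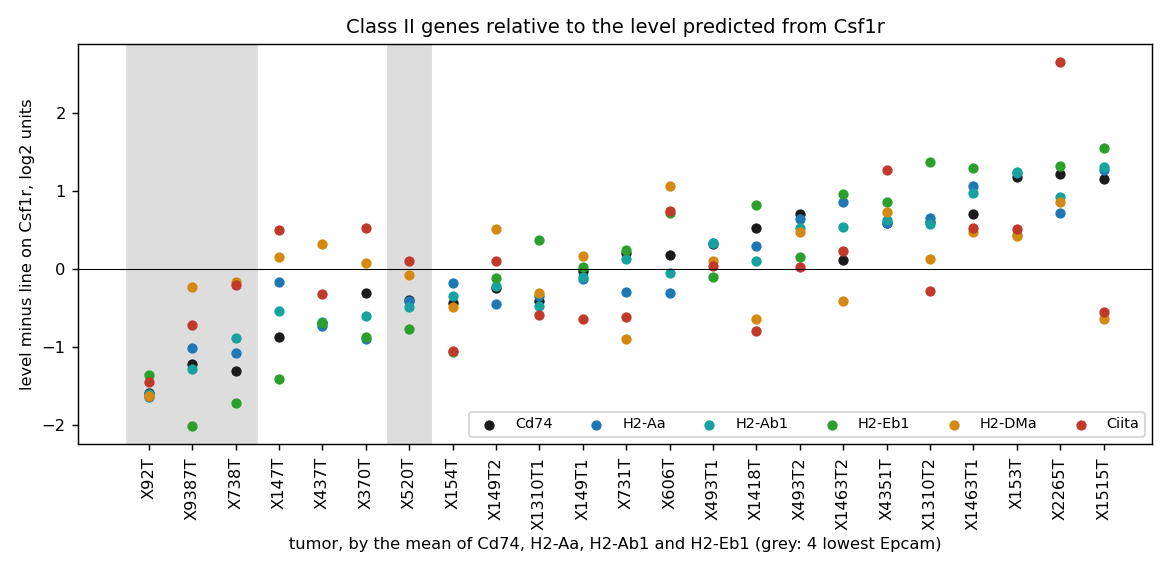
Distance of each class II gene from its regression line on Csf1r, in log2 units, for 23 tumors, with 1 point per gene and tumor and the 4 tumors with the lowest Epcam in grey. H2-Eb1 of X9387T lies furthest below, at -2.02, and Ciita of X2265T furthest above, at 2.66.

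Over all tumors the other 5 genes rose with Ciita. Ciita was listed at 0 in 9 of 23 tumors, all with high Fos, and these values enter the regression as its lowest. In the regression on Ciita 5 of 5 rose, where 291 of 12040 genes, or 2.42%, rose and 74, or 0.615%, fell. The slope per SD of Ciita was 1.37 ± 0.279 for Cd74 (SE, n = 23, limma adjusted p = 0.00883), 1.24 ± 0.253 for H2-Ab1 (adjusted p = 0.00883), 1.22 ± 0.266 for H2-Aa (adjusted p = 0.0144), 1.25 ± 0.284 for H2-Eb1 (adjusted p = 0.0172) and 1.00 ± 0.147 for H2-DMa (adjusted p = 0.000715). The median slope of all tested genes was 0.11 in this regression. Over the 20 tumors without the 3 of lowest Csf1r, 5 of 5 again rose, where 0.922% of all genes did, with slopes between 0.81 for H2-Aa and 0.93 for Cd74 (limma adjusted p between 0.00384 and 0.00984). The slopes of all 5 genes were thus lower than over 23 tumors, as the plot of slopes shows, and that of H2-DMa least so, at 0.85 against 1.00. Pearson's r with Ciita was higher over the 20 tumors than over 23 for all 5 genes. It was 0.835 against 0.705 for Cd74, 0.824 against 0.705 for H2-Ab1 and 0.790 against 0.681 for H2-Aa. For H2-Eb1 it was 0.786 against 0.666 and for H2-DMa 0.847 against 0.825, as a description with no test. Immediate-early genes fell with Ciita, 10 of 13, and with Fos as a covariate 0 of 5 genes passed (limma adjusted p between 0.135 and 0.390, slopes between 0.81 and 1.22, unadjusted p under 0.05 for all 5). No tested gene passed in that fit, so percent called was 0 for all genes as well. Without X4351T, H2-Eb1 lost its call (limma adjusted p = 0.0594). Within the 15 tumors with high Fos, a set added after seeing the data, 0 of 5 genes and 0% of all genes passed. There the slopes were between 1.34 for H2-DMa and 2.24 for H2-Aa (limma adjusted p between 0.671 and 0.9997).

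**Figure D4:**
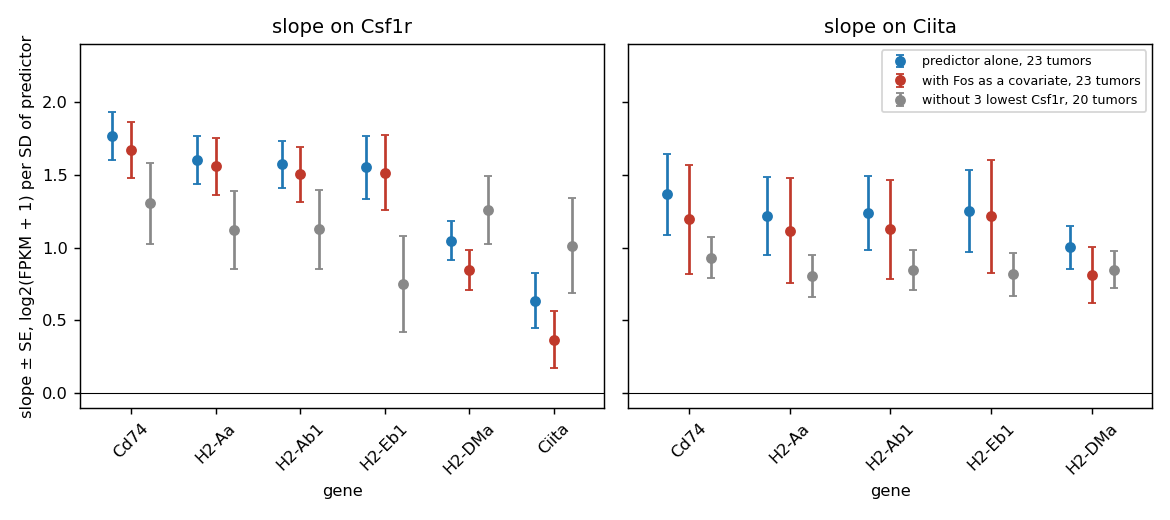
Slopes of the class II genes on Csf1r (left) and on Ciita (right), as log2(FPKM + 1) for each SD of the predictor over 23 tumors, with bars of 1 SE: the predictor alone, with Fos as a covariate, and over the 20 tumors without the 3 of lowest Csf1r. Cd74 has slopes of 1.77 and 1.30 on Csf1r over 23 and 20 tumors, and of 1.37 and 0.93 on Ciita, which has no slope on itself.

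The neighbours of the 4 genes on chromosome 17 did not all pass the test against Csf1r. Of 16 tested protein-coding genes in the span and 100 kb to either side, 6 rose with Csf1r and 0 fell. Over all tested genes 6.33% rose and 1.17% fell. Beside the 4 class II genes above, the 6 that rose were H2-DMb2, at 1.08 ± 0.206 (SE, n = 23, limma adjusted p = 0.00113), and H2-DMb1, at 0.63 ± 0.142 (limma adjusted p = 0.00613), which encode beta chains of H2-DM. Psmb9, Tap1, Psmb8 and Tap2 lie between H2-DMb1 and H2-Ab1 and serve MHC class I, as subunits of the immunoproteasome and as the peptide transporter. Their slopes on Csf1r were between 0.15 and 0.41 (limma adjusted p between 0.175 and 0.666). On Ciita, Psmb9 had a slope of 0.69 (limma adjusted p = 0.0160) and Psmb8 of 0.57 (adjusted p = 0.0391), while Tap1 was at 0.51 (adjusted p = 0.0974) and Tap2 at 0.40 (adjusted p = 0.0903). Whether the slopes of these genes differ from those of their class II neighbours was not tested. Brd2 overlaps the annotated H2-DMa on the opposite strand and had a slope of 0.09 on Csf1r (limma adjusted p = 0.597). Dexi overlaps Ciita on the opposite strand and had a slope of 0.29 on Csf1r (limma adjusted p = 0.173), and the microRNA gene Mir5107 lies within Cd74. No source used here says whether counting was by strand, so reads of overlapping genes cannot be told apart.

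**Figure D5:**
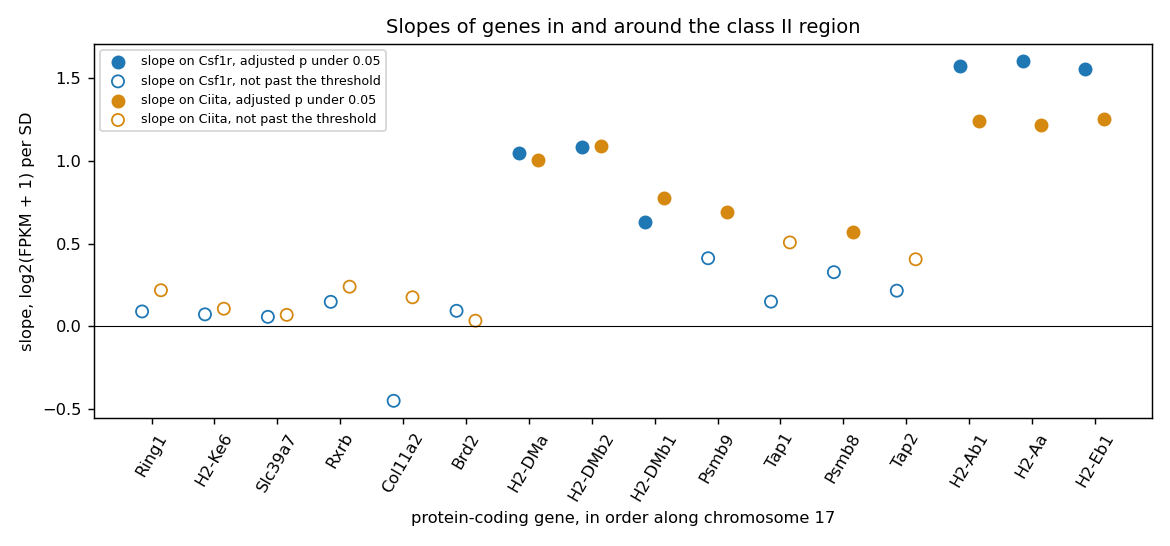
Slopes on Csf1r (blue) and on Ciita (orange) of 16 protein-coding genes in their order along chromosome 17, as log2(FPKM + 1) for each SD of the predictor, with filled points for an adjusted p under 0.05. H2-Ab1, H2-Aa and H2-Eb1 at the right have slopes between 1.55 and 1.60 on Csf1r, and Psmb9 and Psmb8 have filled points on Ciita only.

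Most tested genes of class II peptide loading rose with Csf1r, where 6.33% of all tested genes did. Of 12 genes of peptide loading, a list that includes Cd74 and H2-DMa, 10 were tested and 8 rose, with a median slope of 0.81. Ctss, a protease that trims the invariant chain, had a slope of 1.76 (limma adjusted p = 7.55e-10), and Lgmn, an endosomal protease, of 0.99 (adjusted p = 2.42e-08). Ctsb, at 0.39 (limma adjusted p = 0.0458), and Ifi30, a thiol reductase of the endosome, at 0.44 (adjusted p = 0.0382), passed narrowly. Ctsd and Ctsl, proteases of most lysosomes, were at 0.35 and 0.19 and did not pass. H2-Oa and H2-Ob, which encode an inhibitor of H2-DM, were each listed at 0 in 18 tumors and were not tested. Of 8 class II transcription factors 1 rose, Ciita itself, and the median slope was 0.08. Rfx5 had a slope of -0.01, Rfxap of 0.18 and Nfyc of 0.18 (limma adjusted p between 0.242 and 0.962). Of 4 tested genes of costimulation 2 rose, Cd86 at 0.74 (limma adjusted p = 0.00939) and Icosl at 0.47 (adjusted p = 0.0255). Lag3, a receptor for class II, rose at 0.71 (limma adjusted p = 0.00813).

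Of 23 tested interferon gamma response genes 3 rose with Csf1r (Irf8, Gbp2 and Ifngr1) and 5 with Ciita, with median slopes of 0.36 and 0.49. Of all tested genes 6.33% rose with Csf1r and 2.42% with Ciita. The 5 had slopes on Ciita of 0.87 for Irf8 (limma adjusted p = 0.0144), 0.75 for Irgm2 and 0.69 for Irgm1 (both adjusted p = 0.00883). Ifngr2 was at 0.49 (limma adjusted p = 0.00571) and Ifngr1 at 0.44 (adjusted p = 0.0189). Igtp, a GTPase induced by interferon gamma, had a slope of 0.55 on Csf1r (limma adjusted p = 0.118) and of 0.70 on Ciita (adjusted p = 0.0517). Of 13 genes of MHC class I presentation 2 rose with Csf1r and 3 with Ciita, beside 6.33% and 2.42% of all tested genes. B2m, the light chain of class I, had a slope of 0.16 on Csf1r (limma adjusted p = 0.483) and of 0.30 on Ciita (adjusted p = 0.168).

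Markers of cell types that can carry class II were read beside these genes. Over all tested genes 6.33% rose with Csf1r and 1.17% fell, which is the background of the counts below. Of 19 tested macrophage genes 18 rose with Csf1r, with a median slope of 1.49, among them Lyz2 at 2.05 and the complement gene C1qa at 1.95 (limma adjusted p = 2.2e-10 and 2.69e-10). Of 8 pan-leukocyte genes 8 rose. Of 7 tested dendritic cell genes 2 rose, Itgax at 1.22 (limma adjusted p = 2.9e-07) and Irf8 at 1.02 (adjusted p = 7.94e-05), both of which macrophages also express, while Batf3 was at -0.20 and Fscn1 at 0.36. Zbtb46, a gene of classical dendritic cells, was listed at 0 in 6 tumors and had a median of 0.85. Of 10 B and plasma cell genes 3 had values here: Cd79b was listed at 0 in 21 tumors and Jchain in 16, while Sdc1, which mammary epithelium also expresses, had a median of 6.59. Of 18 T and NK cell genes 9 had values, with Cd4 listed at 0 in 17 tumors and Cd3e in 19. The defining B and T cell genes were thus at or near 0 in most tumors. Of 12 epithelial genes 2 fell with Csf1r, Epcam at -1.71 (limma adjusted p = 0.0309) among them, and 0 rose. Of 9 fibroblast genes 3 rose and of 5 tested endothelial genes 3 rose, with Cdh5 at 0.90 (limma adjusted p = 0.000212). The part of each cell type in the class II levels was not tested.

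The 6 genes also moved with one another. Over the 20 tumors without the 3 of lowest Csf1r, r between H2-Aa and H2-Ab1 was 0.985, between H2-Ab1 and Cd74 0.979 and between H2-Aa and Cd74 0.961, as a description with no test. H2-Eb1 had an r of 0.833 to H2-Aa and 0.856 to H2-Ab1. Ciita had an r of 0.790 to H2-Aa, 0.824 to H2-Ab1, 0.835 to Cd74 and 0.847 to H2-DMa, and H2-DMa with H2-Eb1 had the lowest of the 15 pairs, 0.642. These points share their libraries. Among the other 12035 tested genes, the pattern most like that of the 6, by the mean of Pearson's r over the 6 genes in 23 tumors, was that of Cd52, a leukocyte surface gene, at 0.894. Ncf1, Itgax, Hcls1, Tmem119, Irf5, Mpeg1, Coro1a, Cd72 and Ctss followed, down to 0.859. Among 20 tumors Cd52 was again first, at 0.828, and 4 of the top 10 were shared. Csf1r itself ranked 31 over 23 tumors, at 0.831, and 126 over the 20, at 0.650. Ptprc ranked 240 and 1564, at 0.643 and 0.379. Fos was near the other end, at rank 11988 and 11972, with a mean r of -0.559 and -0.521. The least like were Mir1938, Zscan18, Fermt2, Slc7a3 and Gpc6, with a mean r between -0.69 and -0.64.

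Tumors that share a title number differed in class II together with Csf1r. Cd74 was 7.76 in X149T1 and 5.45 in X149T2, a difference of -2.31, with Csf1r at 3.69 and 1.44. It was 7.24 in X1310T1 and 9.40 in X1310T2, with Csf1r at 3.54 and 4.76. It was 9.71 in X1463T1 and 7.48 in X1463T2, with Csf1r at 4.99 and 3.24. X493T1 and X493T2 were close, at 9.03 and 9.61, with Csf1r at 4.67 and 4.88. In all 4 pairs the tumor with more Csf1r had more Cd74, H2-Aa, H2-Ab1, H2-Eb1 and H2-DMa. Ciita did so too, except in X149T1 and X149T2, where it was listed at 0 in both. How many of all tested genes do the same in 4 pairs was not counted. In a fit with title number as a block, which only these pairs inform, 0 of 6 genes passed and 0 of 12040 rose. With 1 tumor kept per title number, 5 of 6 genes rose with Csf1r, where 4.48% of all genes did, and Ciita had a slope of 0.66 (limma adjusted p = 0.0862).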

How the data were processed

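The authors deposited 1 table of log2(FPKM + 1) values for 23 tumors. Per the labels, tumors were flash frozen, RNA was extracted by Trizol and a NEBNext Ultra RNA kit gave the libraries. The submitters' processing notes name Trimmomatic 0.35, TopHat2 2.0.13, Cufflinks 2.2.1 and mm10. The study's methods give another TopHat release, so the version is not settled. No source used here names the annotation. FPKM keeps no counts, so depth is unknown and counting error cannot be given.

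The 6 genes, the gene lists and the tests were chosen with earlier results of these data known. Each gene whose mean FPKM reached 1 was regressed on Csf1r or Ciita by limma 3.58.1 (R 4.3.3), with its trend option and a two-sided test at a Benjamini-Hochberg threshold of 0.05. The predictor itself was left out, slopes from fewer tumors keep the SD over all 23, and the regression was tested on simulated data. For the alternative with ranks, the test was not moderated, since all genes then have nearly equal variance. Single relations used two-sided permutation tests with 100000 draws, exact for 8 tumors, and scipy 1.17.1. Named genes were the 6, Csf1r, the 10 genes most and 5 least like the 6, up to 4 of each list by level, and Epcam, Fos and Ptprc. Lag3, Igtp, Irgm1, Irgm2, Icosl, Lgmn, Ifi30, Rfx5, H2-Oa, H2-Ob, H2-Ea-ps, Zbtb46, Cd79b, Jchain, Cd4, Cd3e, Gbp2 and the genes of chromosome 17 were named outside this rule. Positions are from GENCODE release M21. Alternatives were another pseudocount and filter, rescaling, centring, 1 tumor per title number, each tumor left out, tumors left out by Epcam or Csf1r, Fos as covariate, ranks, title number as a block and limma without trend. A further predictor is not reported here.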

Additional observations from a re-analysis of the deposited data

How the results depend on the processing

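FPKM without depth, a single labelled group and overlapping cell types limit these results, and a slope does not say which cells hold the RNA. Of 547 values under alternatives 492 kept their direction and call or stayed within 1.5 times, 34 lost a call, 21 counts moved further and 0 changed sign. Each result was refit 23 times with 1 tumor left out, so many of these values share nearly all their tumors and are not independent. A fall from 6 to 4 of the 6 genes still counts as within 1.5 times. The slope of Ciita on Csf1r lost its call with FPKM rescaled without short non-coding RNAs (0.60, limma adjusted p = 0.0511), centred on the median of tested genes (0.53), with 1 tumor per title number (0.66), with Fos as covariate (0.37), within 15 tumors with high Fos (0.26) and without the 3 tumors of lowest Csf1r (1.01), where H2-Eb1 also lost it (0.75). Those last sets were added after seeing the data, and the cause was not tested. In the fit on Csf1r 320 genes passed without the 4 tumors of lowest Epcam and 394 within high Fos, of 903 in the report. In the fit on Ciita 365 genes passed, against 237 at a mean FPKM of 5, 203 rescaled, 89 centred, 233 with 1 tumor per title number, 188 without lowest Epcam, 867 with ranks, 130 without the 3 tumors, and 0 genes and 0 of 5 with Fos as covariate or within high Fos.

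With title number as a replicate block, added after seeing the data, only the 4 title numbers with a pair of tumors inform the slopes. In that fit 2 genes and 0 of the 6 passed for Csf1r, with slopes of 2.32 for Cd74, 2.07 for H2-Aa, 2.04 for H2-Ab1, 1.98 for H2-Eb1, 1.32 for H2-DMa and 0.48 for Ciita (limma adjusted p between 0.283 and 0.623, unadjusted p under 0.05 for 5 of the 6). For Ciita 0 genes and 0 of 5 passed in it, with an unadjusted p under 0.05 for all 5.

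With each tumor left out in turn, the slopes on Csf1r were between 1.65 and 1.86 for Cd74, 1.47 and 1.68 for H2-Aa, 1.49 and 1.65 for H2-Ab1, 1.36 and 1.68 for H2-Eb1, 0.9996 and 1.12 for H2-DMa, and 0.55 and 0.71 for Ciita, which lost its call without X147T, X149T2, X4351T, X520T or X738T. Between 5 and 6 of the 6 and 543 to 985 genes passed for Csf1r, and 4 to 5 and 146 to 412 for Ciita.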
